A study of Mus musculus with 6 samples.

Results

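Gucy2d, Car2, Pde2a, Cnga3 and Gucy1b2 are genes of atypical guanylyl cyclase olfactory neurons, and they were followed here in olfactory cells with and without the transcription factor Fezf1. The 5 genes were taken by symbol from the 19938 genes measured, and each had 1 probe set, so the choice of the brightest probe set per gene did not matter for them. The cells came from the microdissected main olfactory epithelium of C57BL/6 mouse embryos at E18.5, and were sorted for the EGFP that the targeted Fezf1 allele expresses from the Fezf1 promoter. The Fezf1-/- group (called null below) and the Fezf1+/- group (called heterozygous) each had 3 samples, each on 1 Affymetrix 1.0 ST array. Both groups carry the EGFP allele, cells with 2 intact Fezf1 alleles were not analysed here, and the sort takes cells that use the Fezf1 promoter, whatever their type.

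Most olfactory sensory neurons detect odours through odorant receptors and cAMP. A small set instead makes the receptor guanylyl cyclase encoded by Gucy2d, raises cGMP when guanylin peptides or carbon dioxide reach it, and sends its axons to the necklace glomeruli around the back of the olfactory bulb. In these neurons the carbonic anhydrase Car2 turns carbon dioxide into bicarbonate, which stimulates the cyclase, the cGMP opens the channel whose subunit is Cnga3, and the cGMP-stimulated phosphodiesterase Pde2a degrades it. Gucy1b2, a soluble guanylyl cyclase subunit, marks another sparse group of cells in the mouse epithelium that express the channel Trpc2, so the 5 genes do not stand for a single cell type.

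Signals are on the log2 scale, where 1 unit is a factor of 2, and differences are null minus heterozygous. Fezf1 itself stood at 5.56, 5.92 and 6.28 in null cells, against 11.25, 11.12 and 11.30 in heterozygous cells. Null replicate 1 stood apart from the rest: its correlations with the other arrays across genes were 0.905 to 0.935, against 0.975 to 0.995 among the others. Markers of several other cell types were high on it, as given below, and each result is therefore given with all 6 arrays and without it, which leaves 2 null arrays. In the limma fit of all 6 arrays 0.552% of genes passed an adjusted p of 0.05 (110 of 19938), and without null replicate 1 2.66% did (531).

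Promoter sequences are shown for Gucy2d and Pde2a, which lie on the same chromosome and had the most alike profiles of the 5 genes, and for Gucy1b2, which did not share that profile. They are RefSeq sequences of GRCm38.p6, the 250 bases before an annotated start, 5′ to 3′ on the strand of the gene. Capitals mark GC boxes (GGGCGG) and CCAAT boxes on either strand. They cover chr7:98440166-98440415 (plus strand) for Gucy2d, chr7:101451002-101451251 (plus strand) for the fourth of 5 annotated Pde2a starts, and chr14:62456290-62456539 (minus strand) for Gucy1b2.
Gucy2d: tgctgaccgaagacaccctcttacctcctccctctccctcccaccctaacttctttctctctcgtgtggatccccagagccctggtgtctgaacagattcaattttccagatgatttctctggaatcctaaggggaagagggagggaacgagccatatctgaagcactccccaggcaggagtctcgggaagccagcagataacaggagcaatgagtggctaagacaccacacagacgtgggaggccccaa
Pde2a: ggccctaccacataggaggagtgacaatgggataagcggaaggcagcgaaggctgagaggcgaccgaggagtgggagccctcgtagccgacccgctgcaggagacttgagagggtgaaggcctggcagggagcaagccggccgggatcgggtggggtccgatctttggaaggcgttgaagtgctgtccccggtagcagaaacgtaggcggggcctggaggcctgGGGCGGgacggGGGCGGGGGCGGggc
Gucy1b2: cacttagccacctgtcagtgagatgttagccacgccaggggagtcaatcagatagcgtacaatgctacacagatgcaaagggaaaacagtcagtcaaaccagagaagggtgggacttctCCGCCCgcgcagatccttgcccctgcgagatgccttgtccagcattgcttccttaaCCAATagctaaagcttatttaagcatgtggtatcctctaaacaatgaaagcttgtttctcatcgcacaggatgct

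The Gucy2d window held neither box and no TATA box (TATAAA). The Pde2a window held 3 GC boxes and was 68.0% G or C, against 54.4% in Gucy2d and a median of 52.4% over 32851 promoter windows. The other 4 Pde2a windows held no GC box and were 50.8% to 61.6% G or C, and that of the second start held 1 CCAAT box. The window shown is thus the richest in G and C of the 5, and the contrast with Gucy2d depends on that choice. Gucy1b2 held 1 GC box and 1 CCAAT box. A GC box was present in 32.7% of all windows and a CCAAT box in 33.8%. The core CCCNNGGG of sites for Ebf, a transcription factor family of olfactory neurons, and the homeodomain core TAATTA were also read on both strands. They matched in none of the windows listed for Gucy2d, Pde2a, Cnga3 and Gucy1b2, and in 11.8% and 4.84% of all windows. The motifs are matches of letters only, and the array does not tell which start was used.

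Among the 5 genes, Car2 and Pde2a stood furthest above the heterozygous level in null cells, Gucy2d came next, Cnga3 was slightly higher, and Gucy1b2 was level. With all 6 arrays 0 of the 5 passed the limma test. Before adjustment 4 of them were higher and 0 lower at p under 0.05, where 4.23% of all genes were higher and 5.25% lower. Without null replicate 1, Gucy2d, Car2 and Pde2a rose, 3 of 5, where 0.993% of all genes rose. Before adjustment the count in that fit was 4 higher and 0 lower, against 7.63% and 8.68% of all genes. In 4 of the 5 genes the 3 null values all lay above the 3 heterozygous values, which was so for 9.72% of all genes. The median difference of the 5 was 1.04 with all arrays and 1.48 without null replicate 1, against 0.02 over all genes in either fit.

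Gucy2d, the cyclase that defines the necklace neurons, read 6.00, 7.37 and 7.27 in null replicates 1, 2 and 3, against 5.83, 5.87 and 5.82 in heterozygous cells. Null replicates 2 and 3 were high, and null replicate 1 lay just above the heterozygous arrays, which were close to each other. The means were 6.88 ± 0.76 in null cells and 5.84 ± 0.02 in heterozygous cells (SD, n = 3 each), and the difference was 1.04 (SE 0.37, adjusted p = 0.455 by limma), or 2.06-fold. Without null replicate 1 it was 1.48 (SE 0.09, adjusted p = 0.000716), or 2.79-fold. Heterozygous values lay no higher than percentile 40.6 among genes, while the null values reached percentile 65.7. In RNA from sorted cells, more Gucy2d neurons in the sort and more Gucy2d RNA per cell cannot be told apart, and this holds for each gene below.

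Car2, the cytosolic carbonic anhydrase that supplies bicarbonate to the cyclase, read 9.11, 10.77 and 10.61 in null cells, against 7.31, 8.24 and 8.14 in heterozygous cells. The groups did not overlap, and replicate 1 was the low array in both. The mean was 10.16 ± 0.91 in null cells and 7.90 ± 0.51 in heterozygous cells (SD, n = 3 each). The difference was 2.27 (SE 0.50, adjusted p = 0.197), a 4.81-fold higher signal that did not pass. Without null replicate 1 it was 2.79 (SE 0.27, adjusted p = 0.00443), or 6.93-fold. Counted from the highest positive difference, Car2 was number 2 of all genes with 6 arrays and number 3 without null replicate 1. Its null values lay between percentiles 90.5 and 98.4 among genes, and its heterozygous values between 64.5 and 79.6.

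Pde2a, the phosphodiesterase of the same neurons, read 8.12, 9.51 and 9.54 in null cells, against 7.36, 7.19 and 7.35 in heterozygous cells. All null arrays were above the heterozygous ones, with null replicates 2 and 3 close together. The means were 9.06 ± 0.81 in null cells and 7.30 ± 0.10 in heterozygous cells (SD, n = 3 each). The difference was 1.76 (SE 0.39, adjusted p = 0.202), or 3.38-fold, and without null replicate 1 it was 2.22 (SE 0.10, adjusted p = 0.000249), or 4.67-fold. In that fit Pde2a was number 12 of all genes by p and number 10 from the highest positive difference.

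Cnga3, the cGMP-gated channel subunit, read 5.60, 5.97 and 5.81 in null cells, against 5.53, 5.20 and 5.25 in heterozygous cells. The groups did not overlap, but null replicate 1 and heterozygous replicate 1 were nearly level. The difference was 0.47 (SE 0.14, adjusted p = 0.379), or 1.38-fold, and 0.56 (SE 0.13, adjusted p = 0.0861) without null replicate 1, so Cnga3 did not pass in either fit. Its values lay between percentiles 29.2 and 42.8 among genes, and signal over background was not examined.

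Gucy1b2 read 4.78, 5.16 and 5.002 in null cells, against 4.95, 4.76 and 5.07 in heterozygous cells, and the groups overlapped. The difference was 0.06 (95% interval -0.28 to 0.39, adjusted p = 0.902), and without null replicate 1 it was 0.16 (95% interval -0.13 to 0.45, adjusted p = 0.582). All 6 values lay between percentiles 22.2 and 28.9 among genes, the lowest of the 5 genes, so whether Gucy1b2 RNA was detected at all is not known. Trpc2 was not analysed here. The list for Trpc2-positive cells held 4 measured genes, Gucy1b2, the homeobox gene Emx1, the adenylate cyclase gene Adcy3 and the channel gene Cnga2. Its median was -0.54 over all arrays and -0.17 without null replicate 1. Adcy3 and Cnga2 also belong to the canonical cAMP cascade given below, so their values are not particular to Trpc2-positive cells. Over all arrays 0 of the 4 passed by limma. Before adjustment 1 was higher and 1 lower at p under 0.05, against 4.23% and 5.25% of all genes. Emx1 differed by 0.66 (adjusted p = 0.296), Adcy3 by -1.28 (adjusted p = 0.263) and Cnga2 by -1.14 (adjusted p = 0.584). With null replicate 1 left out, Emx1 rose by 0.84 (adjusted p = 0.0183), Adcy3 fell (-0.93, adjusted p = 0.0432), and Cnga2 differed by -0.49 (adjusted p = 0.2). In that fit 0.993% of all genes rose and 1.67% fell.

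**Figure D1:**
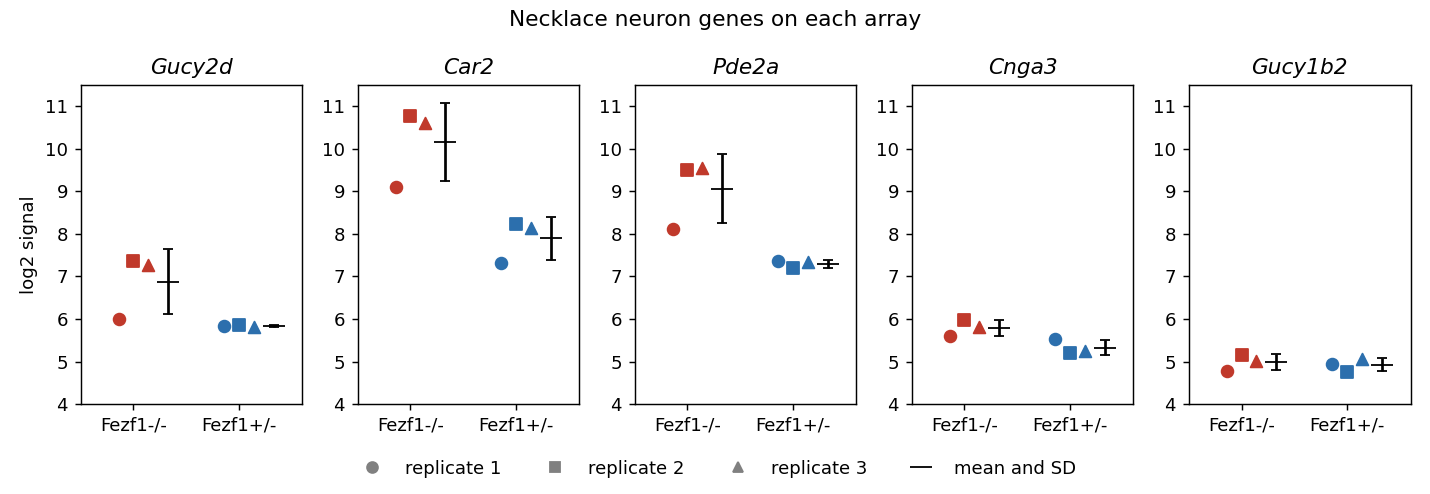
Log2 signal of the 5 necklace neuron genes on each array, with null (Fezf1-/-) values in red on the left of each panel, heterozygous (Fezf1+/-) values in blue on the right, marker shape for the replicate number, and bars for the mean and SD of 3 arrays. Null replicates 2 and 3 lie above the heterozygous arrays for Gucy2d, Car2, Pde2a and Cnga3, with null replicate 1 between them and the heterozygous values.

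**Figure D2:**
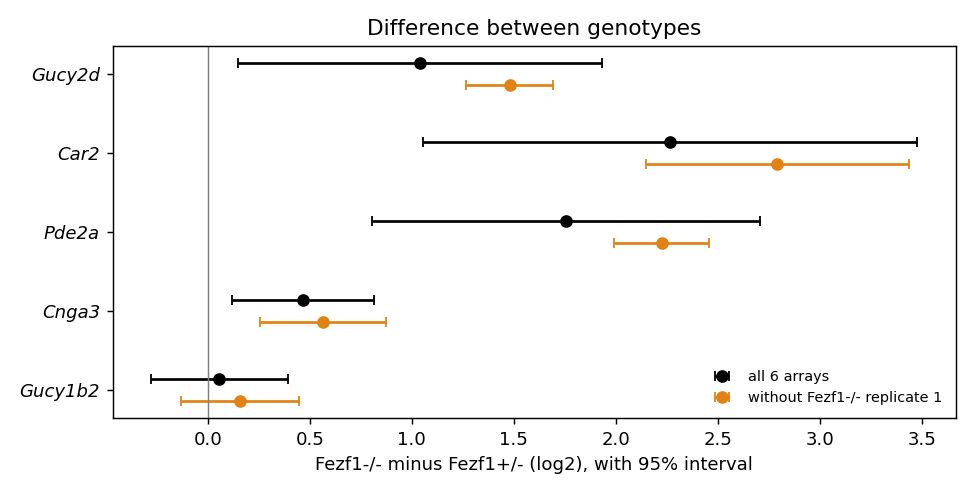
Null minus heterozygous difference (log2) of the 5 genes with its 95% interval from limma, in black for all 6 arrays and in orange without null replicate 1. The intervals for Gucy2d and Pde2a are narrower without that array, and those of Gucy1b2 include 0 in both fits.

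Null replicate 1 showed a different share of the change in each gene. Relative to the heterozygous mean it was 1.21 higher for Car2, 0.82 for Pde2a, 0.27 for Cnga3 and 0.16 for Gucy2d, and 0.14 lower for Gucy1b2 (-0.14). That was 43.5% of the rise of null replicates 2 and 3 for Car2, 37.0% for Pde2a, 48.1% for Cnga3 and 10.9% for Gucy2d. Pearson correlations over the 6 arrays, which share the split by genotype, were 0.973 between Gucy2d and Pde2a, 0.962 between Car2 and Pde2a, and 0.941 between Gucy2d and Car2. Those of Gucy1b2 with the other 4 genes were 0.437 to 0.597.

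Other guanylyl cyclases had smaller differences than Gucy2d. Of the 9 cyclase genes besides Gucy2d and Gucy1b2, 0 passed in either fit by limma. At p under 0.05 before adjustment 4 were higher over all arrays and 3 without null replicate 1, where 4.23% and 7.63% of all genes were higher, and 0 were lower. Their median differences were 0.29 and 0.17. The natriuretic peptide receptors Npr1 and Npr2 differed by 0.52 (adjusted p = 0.371) and 0.53 (adjusted p = 0.468). Npr1 read 5.72, 5.27 and 5.46 in null cells, against 5.14, 4.77 and 4.98 in heterozygous cells, with no overlap. Gucy1a1, the alpha subunit of the main soluble cyclase, read 7.27 on null replicate 1 and 5.29 and 5.15 on the other null arrays, against 5.33, 5.79 and 5.32 in heterozygous cells. Gucy2e and Gucy2f, the cyclases of the retina, differed by 0.17 and 0.06, and Gucy2c, the guanylin receptor of the gut, by -0.09. Leaving out null replicate 1 gave 0.16, 0.07 and 0.02 for them.

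Phosphodiesterases moved in both directions. Of the 23 besides Pde2a, Pde7b fell over all arrays and 0 rose, where 0.456% of all genes fell and 0.0953% rose. Without null replicate 1, Pde1a and Pde8b rose, and Pde7b, Pde1c and Pde1b fell, where 0.993% of all genes rose and 1.67% fell. Before adjustment 2 were higher and 4 lower at p under 0.05, where 4.23% of all genes were higher and 5.25% lower. Without null replicate 1 the counts were 3 and 5, against 7.63% and 8.68% of all genes. The median over these 23 was -0.01, and -0.07 without null replicate 1. Pde1a, a calcium-stimulated enzyme that hydrolyses cAMP and cGMP, read 7.35, 8.44 and 8.53 in null cells, against 5.72, 5.93 and 5.92 in heterozygous cells. It differed by 2.25 (SE 0.32, adjusted p = 0.0635), and by 2.63 (SE 0.11, adjusted p = 0.000197) without null replicate 1. Its paralogue Pde1c, which degrades cAMP in the cilia of odour-sensing neurons, read 7.23, 7.59 and 7.34 in null cells, against 8.18, 8.32 and 8.56 in heterozygous cells, a difference of -0.97 (adjusted p = 0.0694) that became -0.89 (adjusted p = 0.0272) without null replicate 1. Pde7b, a cAMP-specific enzyme, read 8.84, 9.07 and 9.21 in null cells, against 10.36, 10.42 and 10.80 in heterozygous cells, a difference of -1.49 (SE 0.16, adjusted p = 0.0246). It kept its call only without null replicate 1 (adjusted p = 0.00749), and not when any other array was left out (0.0755 to 0.119).

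Among cyclic nucleotide-gated channels, Cnga3 had a positive difference while the subunits of the odour-sensing channel had negative ones. Cnga4 read 5.46, 6.66 and 6.92 in null cells, against 7.87, 7.77 and 8.57 in heterozygous cells (-1.72, adjusted p = 0.257), and without null replicate 1 the difference was -1.28 (adjusted p = 0.0508). Cngb1 differed by -1.22 (adjusted p = 0.431) and Cnga2 by -1.14 (adjusted p = 0.584), and leaving out null replicate 1 gave -0.78 and -0.49. None of the 6 channel genes passed in either fit by limma. At p under 0.05 before adjustment, Cnga3 was the 1 higher gene in both fits, and 2 were lower over all arrays and 3 without null replicate 1. Of all genes, 4.23% were higher and 5.25% lower over all arrays, and 7.63% and 8.68% without null replicate 1. Of 15 genes of the canonical cAMP cascade, 0 passed over all arrays (before adjustment 10 were lower at p under 0.05, as were 5.25% of all genes, and 0 higher). In the fit without null replicate 1, 5 of them fell, where 1.67% of all genes fell. The median was -1.22 over all arrays and -0.89 without null replicate 1. Omp, the marker protein of mature neurons, and Adcy3 were among those 5, at -1.12 (adjusted p = 0.00702) and -0.93 (adjusted p = 0.0432).

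Carbonic anhydrases had Car2 at one end and Car6, the secreted enzyme of saliva and glands, at the other. Car6 read 4.46, 4.61 and 4.54 in null cells, against 6.71, 7.61 and 7.51 in heterozygous cells, and fell by 2.74 (SE 0.24, adjusted p = 0.0128). The call for Car6 held without null replicate 1 (adjusted p = 0.00443) and without heterozygous replicate 1 (0.00421), and was lost without null replicates 2 or 3 (0.0828 and 0.0637) or heterozygous replicates 2 or 3 (0.0576 and 0.0869). Of the 15 carbonic anhydrases besides Car2, Car6 was the 1 that passed, in both fits, where 0.456% and 1.67% of all genes fell. Before adjustment 1 was higher and 1 lower at p under 0.05, where 4.23% of all genes were higher and 5.25% lower. Without null replicate 1 the counts were 1 higher and 6 lower, against 7.63% and 8.68% of all genes. The median difference was 0.02 over all arrays and -0.09 without null replicate 1. Car1 and Car3, which neighbour Car2 on the chromosome, differed by 0.16 (adjusted p = 0.71) and 0.47 (adjusted p = 0.523).

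Ligands, activators and effectors of cGMP had a median difference of 0.12 over all arrays and 0.09 without null replicate 1. Of 12 genes measured, 0 passed over all arrays. Before adjustment 2 were higher at p under 0.05 and 0 lower, where 4.23% of all genes were higher. Without null replicate 1, Hpca alone rose, where 0.993% of all genes rose. In that fit 4 were higher before adjustment and 0 lower, where 7.63% of all genes were higher. Hpca encodes hippocalcin, a neuronal calcium sensor reported to stimulate the Gucy2d cyclase in the rat. It read 6.74, 6.84 and 7.02 in null cells, against 6.30, 5.99 and 6.31 in heterozygous cells, a difference of 0.66 (adjusted p = 0.152), or 0.73 (adjusted p = 0.0432) without null replicate 1. The guanylin genes Guca2a and Guca2b, which encode peptide ligands, differed by 0.29 (adjusted p = 0.401) and 0.17 (adjusted p = 0.724). Prkg1, the cGMP-dependent kinase, read 8.05 on null replicate 1 and 6.27 and 6.72 on the other null arrays, against 5.93, 5.97 and 5.93 in heterozygous cells. Ms4a genes encode membrane proteins described as receptors of mouse necklace neurons and also used by leukocytes. Their median over 16 members was 0.10, and 0.05 without null replicate 1, and 0 passed in either fit. Before adjustment 1 was higher over all arrays and 2 without null replicate 1, against 4.23% and 7.63% of all genes, and 0 were lower. Some Ms4a genes were high on null replicate 1 alone. Ms4a6c read 8.86 there and 5.17 and 5.16 on the other null arrays, against 5.07, 4.63 and 4.63 in heterozygous cells. The linear signal summed over the family was 1151 on null replicate 1, 384 and 395 on the other null arrays, and 343 to 378 in heterozygous cells.

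**Figure D3:**
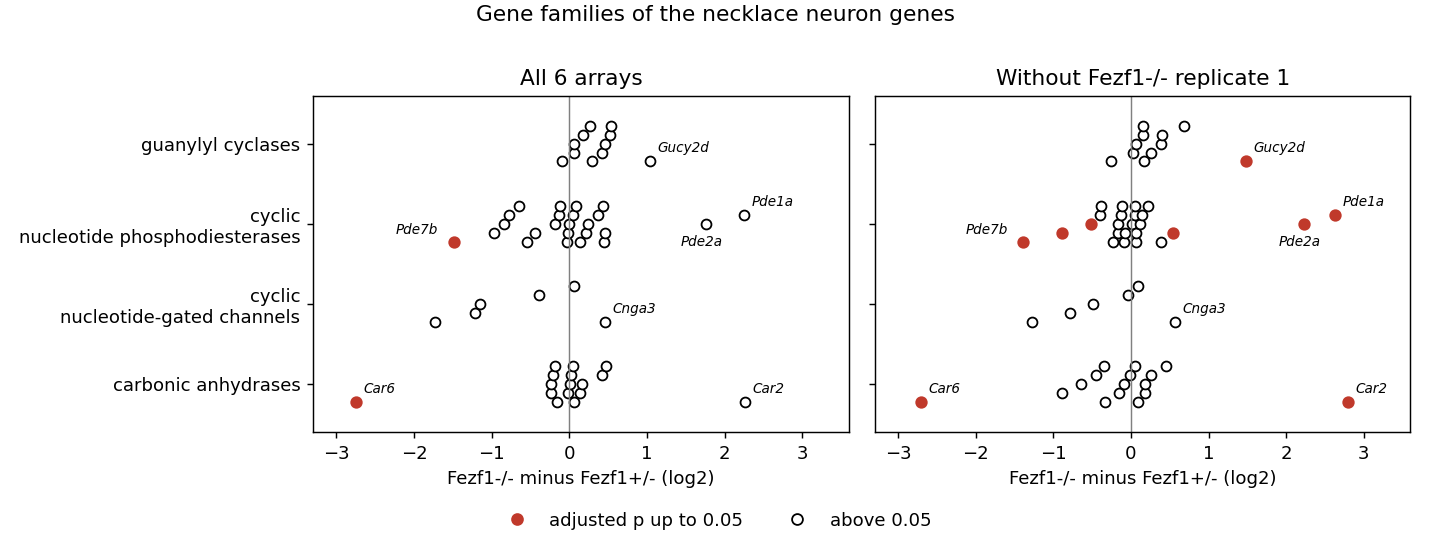
Null minus heterozygous difference (log2) of each gene in the 4 families to which the necklace neuron genes belong, with all 6 arrays on the left and without null replicate 1 on the right. Filled points passed an adjusted p of 0.05, and vertical offsets only separate points. Car2 and Car6 lie at opposite ends of their family, as do Pde1a and Pde7b.

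Genes with profiles most like each necklace gene were sought among 2501 genes whose SD over the arrays was at least 0.5, by Pearson correlation over 6 arrays. Closest to Gucy2d were the vomeronasal receptor genes Vmn1r13 (r = 0.998) and Vmn1r40 (0.988), the transcriptional cofactor gene Lmo2 (0.996), the adaptor gene Stac (0.994) and the neuronal adhesion gene Cntnap5a (0.989). Vmn1r13 read 3.48, 6.37 and 6.20 in null cells, against 3.31, 3.48 and 3.27 in heterozygous cells, so its groups overlapped. Outside null replicates 2 and 3 it lay near the low end of the signal range. Lmo2 read 9.62, 10.78 and 10.67 in null cells, against 9.43, 9.37 and 9.51 in heterozygous cells, with null replicates 2 and 3 high and null replicate 1 near the heterozygous level, as for Gucy2d. Closest to Pde2a were Mab21l1 (0.997), the homeobox gene Dlx3 (0.996), Vmn1r40 (0.994), Vmn1r49 (0.994) and Cntnap5a (0.992). Dlx3 read 8.07, 9.20 and 9.16 in null cells, against 7.15, 6.94 and 7.17 in heterozygous cells. Vmn1r49 was dim, at 3.61, 4.29 and 4.41 in null cells, against 3.19, 3.24 and 3.31 in heterozygous cells. Closest to Car2 were Sphkap (0.998), which encodes an anchoring protein of protein kinase A, the exchange factor gene Vav3 (0.987), Pde1a (0.978), the guanylate kinase gene Guk1 (0.976) and Vmn1r49 (0.974). Sphkap read 7.31, 9.01 and 9.07 in null cells, against 5.58, 6.35 and 6.28 in heterozygous cells, with heterozygous replicate 1 the lowest as for Car2.

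Cnga3 was followed most closely by the sodium channel gene Scn11a (0.986), Spry2 (0.968), Trim29 (0.967), Rapgef6 (0.957) and Vmn1r89 (0.956). All 5 genes nearest to Gucy1b2 were odorant receptor genes or pseudogenes, Olfr1387 (0.968), Olfr947-ps1 (0.963), Olfr1396 (0.892), Olfr464 (0.887) and Olfr284 (0.887). Olfr1387 read 5.18, 7.001 and 6.59 in null cells, against 6.22, 5.55 and 6.65 in heterozygous cells, so its groups overlapped too. These correlations describe the arrays, which share genotype and the deviation of null replicate 1, and many genes high in null replicates 2 and 3 alone would score well with Gucy2d.

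**Figure D4:**
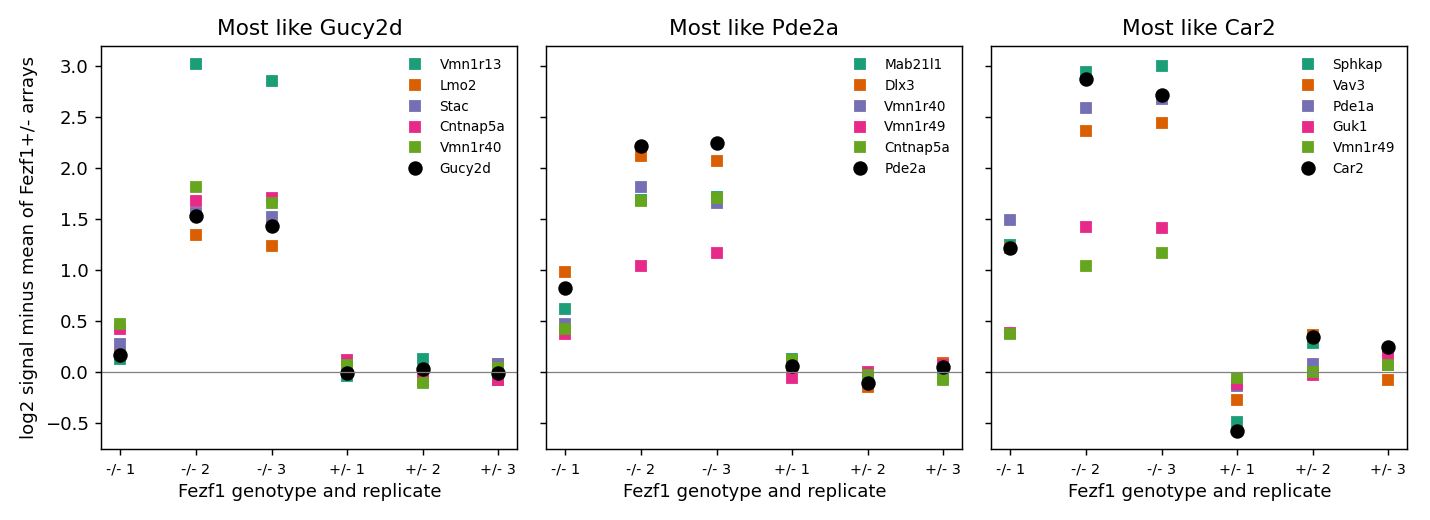
Log2 signal minus the mean of the heterozygous arrays for Gucy2d, Pde2a and Car2 (black circles) and the 5 genes most like each (coloured squares), with null arrays on the left and heterozygous arrays on the right of each panel. Null replicates 2 and 3 carry the high values, and for Car2 and Sphkap heterozygous replicate 1 is the lowest array.

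Genes that neighbour the 5 on the chromosome were read for comparison, taking the nearest 2 protein-coding genes on each side in GRCm38.p6, of which 16 had a probe set. None of them passed in either fit by limma. At an unadjusted p under 0.05 there were 3 over all arrays, Lrrc32 and Car3 higher and Dleu7 lower, where 4.23% of all genes were higher and 5.25% lower. Without null replicate 1 there were 4, Car1, Tmem131 and Inpp4a higher and Dleu7 lower, where 7.63% of all genes were higher and 8.68% lower. Beside Gucy2d, Lrrc32 differed by 0.34 (adjusted p = 0.465), Acer3 by -0.24 and Emsy by -0.10. Beside Pde2a, Arap1 differed by 0.21, Clpb by -0.08 and Stard10 by -0.04. With null replicate 1 left out, Lrrc32, Acer3 and Emsy differed by 0.24, -0.44 and -0.10. In the same fit Arap1, Clpb and Stard10 differed by -0.06, 0.11 and 0.02.

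Car2 and Pde2a are also used outside olfactory neurons, Car2 in red cells and osteoclasts and Pde2a in endothelium, so the markers of those cells were read on the same arrays. For 9 of 12 erythroid markers measured, the summed signal (linear units, over all markers) was 1187 in null replicate 1 and 263 to 317 in null replicates 2 and 3, against 255 to 299 in heterozygous cells. For 10 of 10 osteoclast markers it was 811 in null replicate 1 and 526 to 552 in null replicates 2 and 3, against 512 to 519 in heterozygous cells. For 10 of 10 endothelial markers it was 1101 in null replicate 1 and 382 to 383 in null replicates 2 and 3, against 339 to 496 in heterozygous cells. The median difference without null replicate 1 was 0.10 for erythroid, -0.0019 for osteoclast and -0.14 for endothelial markers. By limma 0 of these 29 genes passed in either fit, where 0.552% of all genes passed over all arrays and 2.66% without null replicate 1. With shares this low, 0 calls in 29 genes is unremarkable. At an unadjusted p under 0.05, 1 osteoclast marker was higher over all arrays, where 4.23% of all genes were higher. Leaving out null replicate 1, 2 osteoclast markers were higher and 1 endothelial marker was lower, where 7.63% of all genes were higher and 8.68% lower. The part of such cells in the Car2 and Pde2a differences was not tested.

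Null replicate 1 carried high markers of mesenchyme and bone, whose median over 13 of 14 genes lay 3.11 above the heterozygous mean on that array, and -0.04 and -0.13 from it on null replicates 2 and 3. The same shifts were 2.06, 0.02 and 0.04 for 14 myeloid markers and 1.44, 0.06 and 0.15 for 8 of 10 ensheathing glia markers. Markers of neurons were low on it: the shifts were -2.45, -0.995 and -0.86 for 15 mature neuron markers and -0.86, 0.32 and 0.35 for 13 immature neuron markers. For the 5 necklace genes they were 0.27, 1.53 and 1.43. The part of this array's makeup in its lower necklace gene values was not tested.

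**Figure D5:**
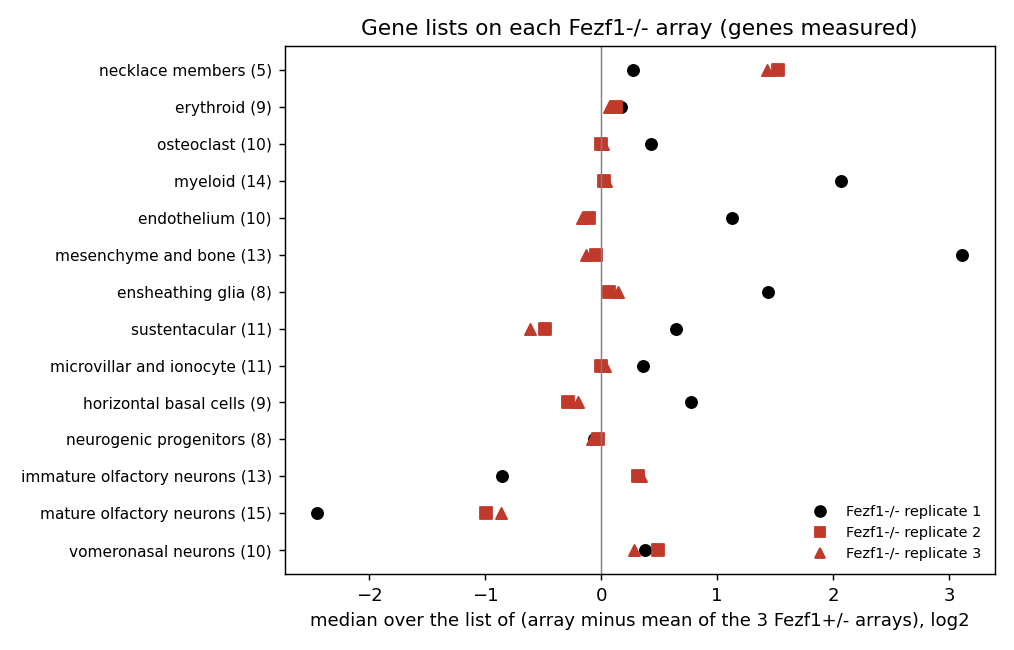
Median over each gene list of the null array minus the mean of the 3 heterozygous arrays (log2), with null replicate 1 as black circles, replicate 2 as red squares and replicate 3 as red triangles, and the number of genes measured in parentheses. Null replicates 2 and 3 lie at 1.53 and 1.43 for the necklace neuron genes and at -0.995 and -0.86 for mature neuron markers, while null replicate 1 is shifted up for mesenchyme, myeloid and glial markers.

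Vomeronasal neuron markers were read because null cells could hold neurons of the neighbouring organ. Of 10 of 11 measured, Gnai2 was the 1 that rose over all arrays, where 0.0953% of all genes rose. Gnai2 read 10.47, 10.36 and 10.36 in null cells, against 9.20, 9.42 and 9.06 in heterozygous cells (1.17, adjusted p = 0.0201). Its call was lost when null replicate 2 or 3, or heterozygous replicate 1 or 3, was left out (adjusted p from 0.0875 to 0.108). Without null replicate 1, Vmn2r1 also rose (2.46, adjusted p = 0.00995), where 0.993% of all genes rose. Before adjustment 3 of the list were higher at p under 0.05 over all arrays and 5 without null replicate 1, and 0 were lower. Of all genes, 4.23% and 7.63% were higher. The median shifts of this list from the heterozygous mean were 0.38, 0.49 and 0.28 in null replicates 1, 2 and 3. The mean level of the list was 7.88, 8.36 and 7.96 in null replicates 1, 2 and 3, against at most 7.61 in heterozygous cells. The median difference of null replicate 1 from the mean of the other null arrays was -0.46 over the list. Which cells within the sort carried either set of transcripts was not tested.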

How the data were processed

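Sorted olfactory cells of 3 null and 3 heterozygous samples were measured on 1 array each. RNA was extracted with a micro kit and 100 ng was labelled, per the labels' protocols. The authors deposited a log2 signal for every probe set. Per the submitters' processing notes, GCRMA and Affymetrix Expression Console were used; versions, order and filters are not stated there. The base of the logarithm was taken from the values, 2.14 to 14.5, since a natural log of a 16-bit reading cannot exceed 11.1. Medians were 5.82 to 5.95 and no further normalisation was applied. Scanner files were not used here, so signal over background is unknown, and 3 arrays a group limit precision.

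Of 35557 probe sets, 21789 carried 1 symbol in the 2016 platform annotation, 1621 several and 12147 none; 21698 were updated through RefSeq of GRCm38.p6. The probe set with the highest mean represented each of 19938 genes. Genotypes were compared by lmFit and eBayes of limma 3.58.1 under R 4.3.3 (two-sided, Benjamini-Hochberg over all genes, threshold 0.05), the source of every adjusted p. The code was tested on simulated data whose spread came from the arrays other than null replicate 1, so an array that stands apart was not simulated. Labels do not say whether replicates are separate embryos, so p-values measure the spread between samples. An exact permutation test of 3 against 3 cannot go below 0.1 and was not run.

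The genes, lists and tests were chosen with earlier results of these data known. Named genes were the 5 members, up to 4 called genes of each list (or the 2 with the smallest p), the 5 genes most like each member, chromosome neighbours, and family members. Same-numbered arrays deviated with correlations of 0.225, -0.332 and 0.541, and differently numbered ones with -0.557 to 0.482. These values cannot decide whether replicate numbers pair the arrays, since deviations within 3 arrays depend on each other. The labels state no pairing, and the main fit used none. Alternatives were quantile normalisation, median centring, a filter on dim genes, probe set averaging, a floor of 5, array weights, an unmoderated test, trended robust eBayes, a replicate block and leaving out each array.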

Additional observations from a re-analysis of the deposited data

How the results depend on the processing

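With all 6 arrays 0 of the 5 genes passed, and the differences of Gucy2d, Car2, Pde2a and Cnga3 stayed positive under every alternative that gave a value for them. With array weights (null replicate 1 at 0.136), Gucy2d (1.45, adjusted p = 0.00361), Car2 (2.72, 0.00309), Pde2a (2.20, 0.00083) and Cnga3 (0.60, 0.0341) passed, 4 of 5. With the replicate block, Car2 alone passed (2.27, adjusted p = 0.0489), which makes 1 of 5, 5 genes rose in all, and 2 carbonic anhydrases were called. Whether the replicate numbers pair the arrays is not known. Leaving out 1 array gave 0.80 to 1.48 for Gucy2d (adjusted p from 0.000716 to 1), 1.96 to 2.79 for Car2 (0.00443 to 0.583), 1.52 to 2.22 for Pde2a (0.000249 to 0.664), 0.38 to 0.57 for Cnga3 (0.0861 to 1) and -0.033 to 0.16 for Gucy1b2, whose sign turned without null replicate 2 (-0.033) and without heterozygous replicate 2 (-0.025). Calls of Gucy2d, Car2 and Pde2a appeared without null replicate 1, and the count of necklace genes called ran from 0 to 3. Over these fits, genes higher ran from 2 to 198 of 19938 (19 with all arrays) and genes lower from 38 to 333 (91). Calls per list ran from 0 to 1 for cyclases and for cGMP ligands and effectors, 0 to 2 for carbonic anhydrases and Trpc2-positive cells, 0 to 6 for phosphodiesterases and 0 to 5 for the cAMP cascade. These list counts include the necklace genes that belong to each list.

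Genes higher and lower numbered 284 and 456 with array weights, 11 and 13 among genes above the median mean, and 2 and 6 with the unmoderated test; 33 were lower with the floor. Array weights called 1 cyclase, 7 phosphodiesterases, 2 channels, 2 carbonic anhydrases, 1 cGMP ligand or effector, 6 cAMP cascade genes and 2 genes of Trpc2-positive cells. The necklace genes are counted in these lists too, and the 1 cyclase was Gucy2d. The unmoderated test and the floor each called 0 phosphodiesterases and 0 carbonic anhydrases, and the filter 0 carbonic anhydrases. Gucy2d, Cnga3 and Gucy1b2 were below that filter and gave no value. Causes of these shifts were not tested.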
